A study of Mus musculus with 2 samples.

Results

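The transcripts described here are the nascent transcripts of mouse bone marrow-derived macrophages (BMDMs) that the deposited annotation places in an exon of a noncoding RNA. They are the called transcripts whose annotation begins with non-coding, taken from the list of the control library and from the list of the library made after 1 h of IL-4. There were 210 of them among 43122 called transcripts in control and 285 among 51365 after IL-4, 495 of 94487 in all. They fell on 235 genes, of which 159 had a transcript of this class in control, 188 after IL-4 and 112 in both libraries.

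A noncoding RNA gene is transcribed but its product is not translated. Some of these RNAs are structural parts of machines, such as the ribosomal RNAs and the RNA of telomerase. Others, the long noncoding RNAs (lncRNAs), scaffold nuclear bodies, carry snoRNAs or microRNAs in their introns, or run antisense to coding genes and share promoters with them.

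Both libraries came from wild-type BMDMs of mice aged 8 to 12 weeks that had been differentiated for 6 days with L929 supernatant, a source of M-CSF. The control cells received no IL-4, and the treated cells received IL-4 at 20 ng/ml for 1 h, early in the alternative polarization that IL-4 drives through STAT6. Global run-on sequencing (GRO-seq) lets engaged RNA polymerases extend in isolated nuclei with Br-UTP and sequences the labelled RNA, so it reads transcription and not the amount of stable RNA. There was 1 library per condition, so no difference below has a replicate check, and no p value or standard error is given. The measurement is the peak score that HOMER gave to each called transcript, printed in steps of 0.1, and the depth of the libraries is unknown. Macrophage genes carried transcripts in both libraries at 10 of the 12 symbols examined, 2 of which name the same gene, and the defining fibroblast genes carried none. The IL-4 target Socs1, a feedback inhibitor of cytokine signaling, had a highest score of 0.3 in control and 2.5 after IL-4. Transcripts near other cell types' markers were few and scored at most 1.0, on 5 of 25 symbols in control and 6 of 25 after IL-4.

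Several of the sequences under the transcripts show what was called. The highest transcript of Gas5, a growth arrest lncRNA that hosts box C/D snoRNAs, covered only 81 bp in control, and 77 of these lay on 1 snoRNA gene. The 2 snoRNA genes under the transcripts of Gas5 are given from the GENCODE transcripts on GRCm38 at chr1:161036057-161036139 and chr1:161035394-161035473, both on the plus strand, with the letters TGATGA (as in box C) and CTGA (as in box D) in capitals wherever they occur on the printed strand:
Gm22357: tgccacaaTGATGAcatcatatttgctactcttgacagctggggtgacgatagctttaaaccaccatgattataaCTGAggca
Gm26224: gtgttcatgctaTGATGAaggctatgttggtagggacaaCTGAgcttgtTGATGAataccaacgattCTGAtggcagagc

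Some of the short called transcripts of other lncRNA genes lay on stretches rich in T. The called stretches of 4 of them are given on their own strand from the same source, with runs of at least 4 T in capitals. They lie at chr7:59286490-59286582 (plus, control), chr10:94676686-94676800 (minus, control), chr3:59152643-59152739 (minus, control) and chr5:25102822-25102907 (plus, IL-4), in that order. They were chosen for their T share, and others among the short transcripts had much less, such as AI662270 with 31.6% in control and 9430060I03Rik with 22.2% after IL-4. F630111L10Rik, 2900005J15Rik, AI662270 and 9430060I03Rik were named after their values were seen:
A230073K19Rik: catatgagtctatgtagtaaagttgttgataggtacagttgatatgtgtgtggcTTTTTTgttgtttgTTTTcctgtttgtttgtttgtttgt
Cep83os: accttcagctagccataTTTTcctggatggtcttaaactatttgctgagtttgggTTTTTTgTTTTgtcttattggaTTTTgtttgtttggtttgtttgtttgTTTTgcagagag
F630111L10Rik: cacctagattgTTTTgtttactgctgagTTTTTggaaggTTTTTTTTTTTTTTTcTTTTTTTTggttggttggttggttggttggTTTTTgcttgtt
2900005J15Rik: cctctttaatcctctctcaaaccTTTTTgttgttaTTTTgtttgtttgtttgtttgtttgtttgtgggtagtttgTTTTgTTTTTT

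Mir99ahg, the host gene of the microRNA cluster miR-99a, let-7c and miR-125b, held many more called transcripts after IL-4 than in control. The mature 5′ products on its strand are given from RefSeq on GRCm38.p6, with the seed (bases 2 to 8) in capitals, because their position in the gene bears on the values below. They lie at chr16:77598940-77598961, chr16:77599672-77599693 and chr16:77646279-77646300, and no seed is shared among them:
mmu-miR-99a-5p: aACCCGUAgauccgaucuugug
mmu-let-7c-5p: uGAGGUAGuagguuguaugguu
mmu-miR-125b-5p: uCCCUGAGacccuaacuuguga

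The noncoding class made up 0.487% of called transcripts in control and 0.555% after IL-4, with exact 95% binomial intervals of 0.423% to 0.557% and 0.492% to 0.623% that cover counting error only and overlap. Not all of the class came from noncoding genes. Genes annotated as lncRNA genes, or with another noncoding type such as processed transcript, held 106 transcripts (50.5%) in control and 134 (47.0%) after IL-4. They are called lncRNA genes here and include the vault RNA gene Vaultrc5, which is annotated as a lncRNA. Noncoding isoforms of protein-coding genes held 84 (40%) and 117 (41.1%), pseudogenes 13 (6.19%) and 26 (9.12%), and structural RNA genes 6 in each library. The remaining 1 and 2 transcripts had an accession that matched no gene.

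The scores of the class were low, as they were over all called transcripts. The median score was 0.3 in control (quartiles 0.2 and 0.5) and 0.2 after IL-4 (0.2 and 0.4), and the medians over all called transcripts were the same. A score of at least 1 was reached by 30 of 210 transcripts (14.3%) in control and 23 of 285 (8.07%) after IL-4, against 7.33% and 3.85% of all called transcripts. Rn45s, Malat1 and Neat1 held 15 of these 30 and 16 of these 23. Without these 3 genes, a comparison added after the values were seen, the shares were 15 of 195 (7.69%) and 7 of 269 (2.60%). The class was then close to the whole list in control and below it after IL-4. Transcripts in coding exons reached a score of 1 in 4.09% and 2.13%. The transcripts of the class were longer after IL-4, with a median of 343 bp against 271.5 bp in control. This was not particular to them: the medians were 227 and 312 bp over all called transcripts and 235 and 328 bp over transcripts in coding exons.

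Among the structural RNAs, Rn45s stood far above every other gene of the class. This precursor of the large ribosomal RNAs had a highest score of 1808.9 in control and 2099.7 after IL-4, and it held 94.3% and 94.9% of score times length over the whole class. Terc, the RNA template of telomerase, had no called transcript over its body in control and 1 of 339 bp with a score of 0.2 after IL-4, at chr3:96414471-96414809. Vaultrc5, a vault RNA made by RNA polymerase III, had a score of 1.2 after IL-4 in this class. Its overlapping control transcript scored 0.8 and was annotated to a transcription termination site, so the class, and not the presence of a transcript, differed between the libraries. Of the 15 ribosomal and structural RNA genes listed, these 3 had a transcript of the class and 1 had it in both libraries.

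The nuclear body lncRNAs followed. Malat1, which marks nuclear speckles, had a highest score of 80.7 in control and 63.3 after IL-4, and Neat1, the scaffold of paraspeckles, 25.8 and 15.0. To compare genes, the log2 ratio of IL-4 to control was centred on the median over all 11354 pairs of a gene and an annotation class that had a score in both libraries. That median was -0.34, so that 2 equal printed scores give a centred value of 0.34. On this scale Malat1 was at -0.01 and Neat1 at -0.44, neither of them 2-fold apart. The highest transcripts of Malat1 did not overlap between the libraries. At the place of the control one the scores were 80.7 in control and 52.1 after IL-4. At the place of the IL-4 one they were 66.7 and 63.3. Summed scores put Malat1 at 0.17 and score times length at -0.52, so its direction depended on the measure.

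**Figure D1:**
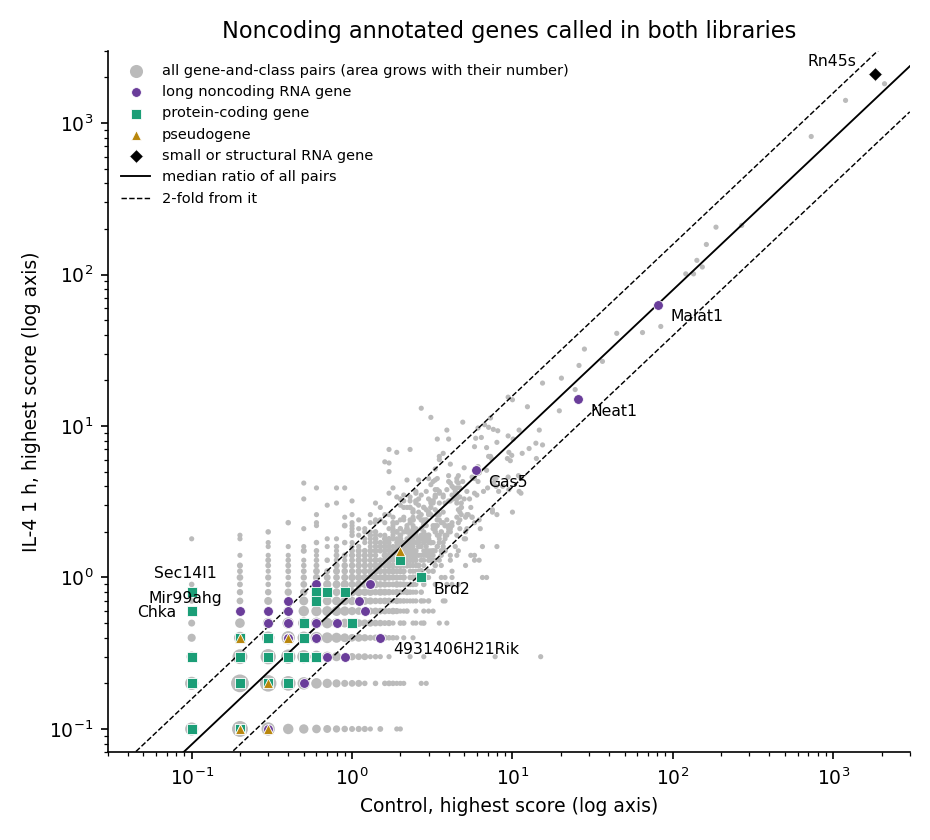
Each coloured point is one of the genes with a noncoding transcript in both libraries, at its highest score in control (x, log axis) and after IL-4 (y, log axis), over all pairs of a gene and a class in grey. Most noncoding points lie between the dashed lines, which mark a 2-fold difference from the median ratio.

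Among genes that host snoRNAs, 5 of 22 listed had a transcript of the class: Gas5, Snhg5, Snhg15, Snhg17 and Epb41l4aos. Gas5 had 2 such transcripts in each library. The upper one scored 5.9 over 81 bp in control and 5.1 over 306 bp after IL-4, at chr1:161036063-161036143 and chr1:161036064-161036369, and began at almost the same base. The other scored 1.8 over 334 bp and 2.5 over 513 bp. Each overlapped 1 of the snoRNA genes printed above. The snoRNA gene made up 95.1% of the upper transcript in control and 24.8% after IL-4. For the other transcript it made up 24.0% and 15.6%. The printed scores of the 2 transcripts differed in opposite directions. On the centred scale the highest score of Gas5 was at 0.13, without centring it was at -0.21, and score times length over both transcripts gave 1.28 after centring, so the direction for Gas5 depended on the measure. Snhg5, another snoRNA host, had 1 transcript in its first exon (chr9:88522681-88522875 in control), which scored 0.3 in control and 0.5 after IL-4, which after centring was a log2 ratio of 1.08, anywhere from 0.70 to 1.48 given the rounding of the scores. Epb41l4aos scored 1.6 in control in this class, and its overlapping transcript after IL-4 scored 0.9 and was annotated to the promoter. Snhg15 scored 0.2 in control alone, and Snhg17 scored 0.1 after IL-4 alone. Over their whole bodies both genes had transcripts in both libraries, with highest scores of 0.2 in control and 0.3 after IL-4 for Snhg15 and 0.2 and 0.4 for Snhg17.

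Of the 210 and 285 transcripts of the class, 5 in control and 2 after IL-4 overlapped a snoRNA or snRNA gene of the same strand. None overlapped a microRNA hairpin. Apart from the 81 bp transcript of Gas5, no 1 such gene made up more than 40.1% of a transcript. The share over all called transcripts is not given. The control transcript of the lncRNA gene 2900060B14Rik scored 1.7 at chr1:118458962-118459260 and covered 120 bp of the 125 bp snRNA gene Gm22710. After IL-4 this place held a transcript of 121 bp with a score of 3.6 that was annotated to the promoter. By class the gene was therefore called in control alone, while by position its score was higher after IL-4.

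The microRNA host Mir99ahg was the only one of 16 listed microRNA host transcripts with a member. It had 1 transcript of the class in each library, with a score of 0.2 over 235 bp in exon 1 in control (chr16:77329357-77329591) and 0.6 over 693 bp in exon 3 after IL-4 (chr16:77459102-77459794). This is 1.93 on the centred log2 scale (1.48 to 2.46 with rounding), but the 2 transcripts did not overlap. Each had an overlapping intron transcript in the other library, with a score of 0.3 after IL-4 at the first place and 0.1 in control at the second. Transcripts of any class over the gene body therefore show the gene better. On its strand, the GENCODE gene of 537 kb held 44 called transcripts covering 8100 bp in control and 150 covering 50814 bp after IL-4. The number was 3.41 times and the covered length 6.27 times that of control. Among 774 GENCODE genes with at least 10 transcripts in each library the median ratios were 1.13 and 1.64, and 21 genes, Mir99ahg included, had a covered length ratio at least as high. Of the 15 such genes with a noncoding transcript, none other reached it. Csf3r, which encodes the G-CSF receptor and had the next largest ratio of the 15, held 11 transcripts covering 2597 bp in control and 19 covering 12618 bp after IL-4.

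Most of the added transcripts of Mir99ahg lay in 1 stretch of the gene. Counted from the GENCODE 5′ end, 23 transcripts began between 100 and 300 kb in control and 125 after IL-4, covering 3971 and 42767 bp. Beyond 300 kb there were 19 in control and 20 after IL-4, covering 3738 and 5341 bp. Before 100 kb there were 2 and 5, covering 391 and 2706 bp, and the first began at 93 kb in both libraries. The matched scores there were 0.2 in control and 0.3 after IL-4 at 93 kb, and 0.4 and 1.0 at 98.6 kb. Matched by overlap between the libraries, 21 of 23 pairs in the stretch from 100 to 300 kb were at least 2-fold higher after IL-4 on the centred scale and 0 were lower. Beyond 300 kb 0 of 12 pairs were higher and 4 were lower. Over all 27406 matched pairs, 10.9% were higher and 11.6% lower. The pairs are neighbouring pieces of 1 gene with 1 library per condition, so they are not separate measurements. At 126 kb the scores were 1.4 in control and 6.7 after IL-4, and at 205.6 kb 0.5 and 2.1. At 379 kb they were 1.9 and 0.6. The printed microRNAs lie 363 kb (miR-99a and let-7c) and 410 kb (miR-125b) from the 5′ end, past the stretch in which matched scores were higher. Beside miR-99a and let-7c, 2 transcripts were called after IL-4 alone, each with a score of 0.1 and annotated to a promoter, and 1 of them covered let-7c. The RefSeq gene that gave the class its name spans only 93 to 322 kb on this scale. The transcripts over it covered 4509 bp in control and, after IL-4, 45575 bp. The microRNAs lie outside this shorter model, and 18 of 19 and 17 of 20 transcripts beyond 300 kb were annotated as intergenic, so which stretches count as Mir99ahg depends on the gene model. The borders of the stretches were drawn after the values were seen, so these counts are a description.

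**Figure D2:**
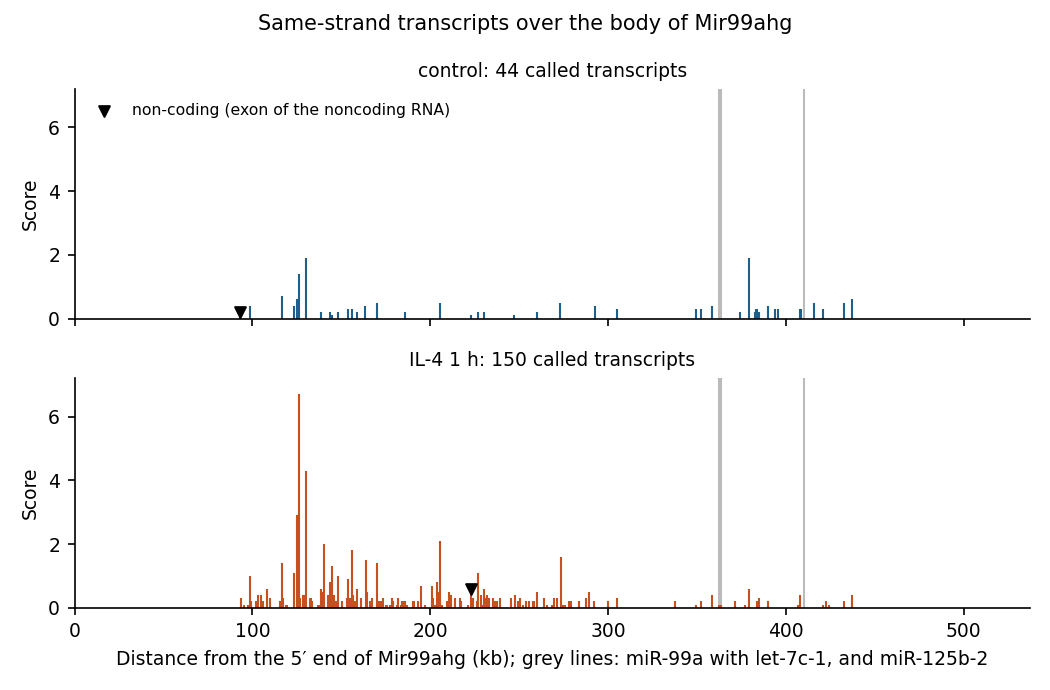
Vertical lines are the called transcripts on the strand of Mir99ahg, placed by their distance from the 5′ end of the gene (kb) with their score as height, for control (44) and IL-4 (150). Triangles mark the transcript of the noncoding class in each library and grey lines the microRNAs. Most of the added transcripts after IL-4 lie between 100 and 300 kb, before the microRNAs.

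Of the 58 lncRNA genes with a score in both libraries, 50 were within 2-fold on the centred scale, where 9.75% of all pairs of a gene and a class were higher and 9.73% lower, while 5 genes were higher and 3 lower. 4931406H21Rik, a single-exon lncRNA within Zmiz1 and on its strand, had the largest difference among the lower ones. Its transcript at chr14:25588646-25588782 scored 1.5 in control, and the overlapping one scored 0.4 after IL-4, or -1.57 on the centred log2 scale (-1.81 to -1.35 with rounding). A second transcript of the gene scored 0.3 and 0.2. Reads of Zmiz1 on the same strand cannot be told apart from those of 4931406H21Rik. Firre, an X-linked lncRNA that organizes nuclear contacts, had 1 transcript in its last exon, which scored 1.2 over 189 bp in control and 0.6 over 187 bp after IL-4, centred at -0.66. A230073K19Rik, which lies within Ube3a, scored 1.1 in control and 0.7 after IL-4. Tug1, a lncRNA linked to chromatin regulators, scored 0.4 in both libraries.

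For 5031425E22Rik the direction depended on the measure. In control it had transcripts of 343 and 420 bp that scored 0.9 and 0.7 at chr5:23432713-23433055 and chr5:23433063-23433482. After IL-4 both overlapped 1 transcript of 1995 bp that scored 0.3. On the centred log2 scale the highest scores gave -1.24 (-1.59 to -0.94 with rounding), the summed scores gave -1.40, and score times length gave 0.012.

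Chaserr, a lncRNA upstream of Chd2 that is known to restrain it, scored 1.3 over 52 bp in control and 0.9 over 1015 bp after IL-4. That stretch also overlaps the 5′ end of the chromatin remodeler gene Chd2 on the same strand, and it overlapped a control transcript of 1.6 annotated to a promoter. On the centred log2 scale its highest score was at -0.19 and score times length over its transcripts at 2.43, so here too the direction turned with the measure. The highest score of the other transcripts nearest to Chd2 was 1.6 in control and 1.5 after IL-4. B230208H11Rik was called after IL-4 alone, with a score of 0.8 over 100 bp at chr10:12922554-12922653, and had no overlapping transcript of any class in control. The listed imprinted lncRNAs with a member were Kcnq1ot1 and Peg13, 2 of 9 listed genes. Kcnq1ot1 scored 0.2 in control and 0.1 after IL-4, from separate places. Peg13 had a highest score of 0.2 in both libraries, also from separate places. Where its transcripts overlapped between the libraries, the scores were 0.1 in control and 0.2 after IL-4. All its transcripts of the class overlapped the coding gene Trappc9 on the same strand. Jpx, an activator of Xist, was the 1 of 4 genes of the X-inactivation centre with a member and scored 0.1 in control alone. Of 26 immune and signaling lncRNAs listed, only Firre, Tug1 and Cep83os had a member, and Cep83os scored 0.3 in control alone. The bodies of Jpx and Cep83os had transcripts of other classes in both libraries, with highest scores of 0.5 and 0.3 for Jpx and 0.5 and 0.5 for Cep83os.

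Since IL-4 acts through STAT6, promoters were searched for TTC and GAA with 4 bases of any kind between them, the spaced palindrome that STAT6 binds, from 250 bases before to 50 bases after each start in RefSeq on GRCm38.p6. The letters are their own reverse complement, so 1 search covers both strands. Of the 235 genes, 170 had a promoter sequence, and 16 of them (9.41%) held the motif, against 8.01% of all 27025 genes. Among lncRNA genes with a transcript of the class it was 6 of 88 (6.82%). A match describes the letters of the window and not binding. Of the lncRNA genes named above, 5031425E22Rik and B230208H11Rik held it. The window of 5031425E22Rik belongs to a start inside the gene, whose RefSeq 5′ end is at chr5:23434353. It lies within the called IL-4 transcript of that gene at chr5:23432347-23434341. The windows at chr5:23433287-23433586 and chr10:12923078-12923377, both on the minus strand, are given in that order with the motif in capitals:
5031425E22Rik: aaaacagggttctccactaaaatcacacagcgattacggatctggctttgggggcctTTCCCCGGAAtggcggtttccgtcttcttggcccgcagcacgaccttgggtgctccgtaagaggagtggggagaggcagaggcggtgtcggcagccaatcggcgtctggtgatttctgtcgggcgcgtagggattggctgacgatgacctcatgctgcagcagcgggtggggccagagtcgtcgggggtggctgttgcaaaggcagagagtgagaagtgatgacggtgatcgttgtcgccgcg
B230208H11Rik: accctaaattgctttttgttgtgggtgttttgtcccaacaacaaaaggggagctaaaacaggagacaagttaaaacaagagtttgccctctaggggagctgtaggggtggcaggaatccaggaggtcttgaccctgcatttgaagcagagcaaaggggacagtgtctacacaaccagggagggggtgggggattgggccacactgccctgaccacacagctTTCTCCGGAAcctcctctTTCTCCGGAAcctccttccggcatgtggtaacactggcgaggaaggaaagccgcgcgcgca

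Many transcripts filed under lncRNA genes were not on the strand of the gene. The class is assigned by the middle of a transcript without regard to strand. Among transcripts of lncRNA genes with a known strand, 32 of 100 (32%) in control and 43 of 128 (33.6%) after IL-4 ran opposite to the gene, against 4.83% and 4.94% of transcripts in coding exons. Of those on the opposite strand, 28 of 32 (87.5%) and 37 of 43 (86.0%) overlapped a protein-coding gene on their own strand. Among those on the strand of their gene this was 17 of 68 (25%) and 22 of 85 (25.9%). By gene, 33 lncRNA genes had members on the opposite strand only, 14 on both strands and 61 on their own strand only. 5830432E09Rik is an example: its score of 0.3 in control and 0.6 after IL-4 came from the strand of Ptpre, an overlapping phosphatase gene. Within the class, a transcript on its own strand scored 0.3 after IL-4 alone. With any class counted over the gene body, its own strand was called in each library. The control library had 1 transcript there, in an intron, which scored 2.5. The IL-4 library had 6, and the highest, also in an intron, scored 3.2. The centred log2 ratio of these highest scores was 0.71, less than 2-fold. The 2-fold difference within the class therefore belongs to the strand of Ptpre.

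Of the transcripts filed under noncoding isoforms of coding genes whose strand was known, 4 of 83 (4.82%) in control and 8 of 117 (6.84%) after IL-4 ran opposite to the gene. Brd2, a bromodomain reader of acetylated histones, scored 2.7 in control and 1.0 after IL-4, or -1.09 on the centred log2 scale. The control transcript lay in exon 1 on the strand of Brd2 (chr17:34118302-34119356), and its overlapping transcript after IL-4 scored 2.3 and was annotated as a coding exon, while the highest IL-4 transcript of the class ran on the other strand, over H2-DMa. The highest score of any class over the body of Brd2 was 2.7 in control and 2.3 after IL-4. In Sec14l1, a lipid-binding protein gene, the class gave 0.1 in control and 0.8 after IL-4 (centred 3.34, the largest increase), from different exons, and the body gave 1.1 and 0.8. In Chka, which encodes a choline kinase, the class gave 0.1 and 0.6 (centred 2.93) and the body 0.7 and 0.6. In Szrd1 the class gave 0.1 and 0.3 and the body 0.7 and 0.8. In each of these 4 genes the highest transcripts of the class did not overlap between the libraries.

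Zfp207, a zinc finger gene of the mitotic spindle, was called at the same place in both libraries, with 2.0 over 67 bp in control and 1.3 over 102 bp after IL-4 in its last exon. By class, 24 of 98 coding genes had a transcript in control alone, 29 after IL-4 alone and 45 in both libraries. The share of genes called in 1 library alone over the other classes is not given, so these counts cannot be read against a background. Among the highest of the coding genes called in 1 library alone were Ythdf3 (1.0) and Elmo1 (0.5) in control. After IL-4 they were Tardbp (1.1), Polg2 (0.9) and Ndufs6 (0.5). Transcripts of any class over the same bodies gave 3.8 and 3.1 for Ythdf3, a reader of methylated mRNA, 0.9 and 1.1 for Tardbp, which encodes the RNA-binding protein TDP-43, and 0.8 and 0.9 for Polg2, a subunit of the mitochondrial DNA polymerase. The body of Elmo1, a phagocytosis adaptor gene, gave 1.3 and 1.0, and that of Ndufs6, a subunit of respiratory complex I, 0.4 and 0.5. All 5 of these named genes thus had transcripts over their bodies in both libraries. Among pseudogenes, Pisd-ps1 scored 2.0 and 1.5 in exon 3 and Slfn10-ps 0.3 and 0.1. For Slfn10-ps the body gave 0.9 and 0.1. The lncRNA gene 1700012D14Rik scored 0.8 in control alone, with an overlapping intron transcript of 0.6 after IL-4, and Rnf227, listed in RefSeq as a lncRNA gene, scored 0.3 and 0.1.

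**Figure D3:**
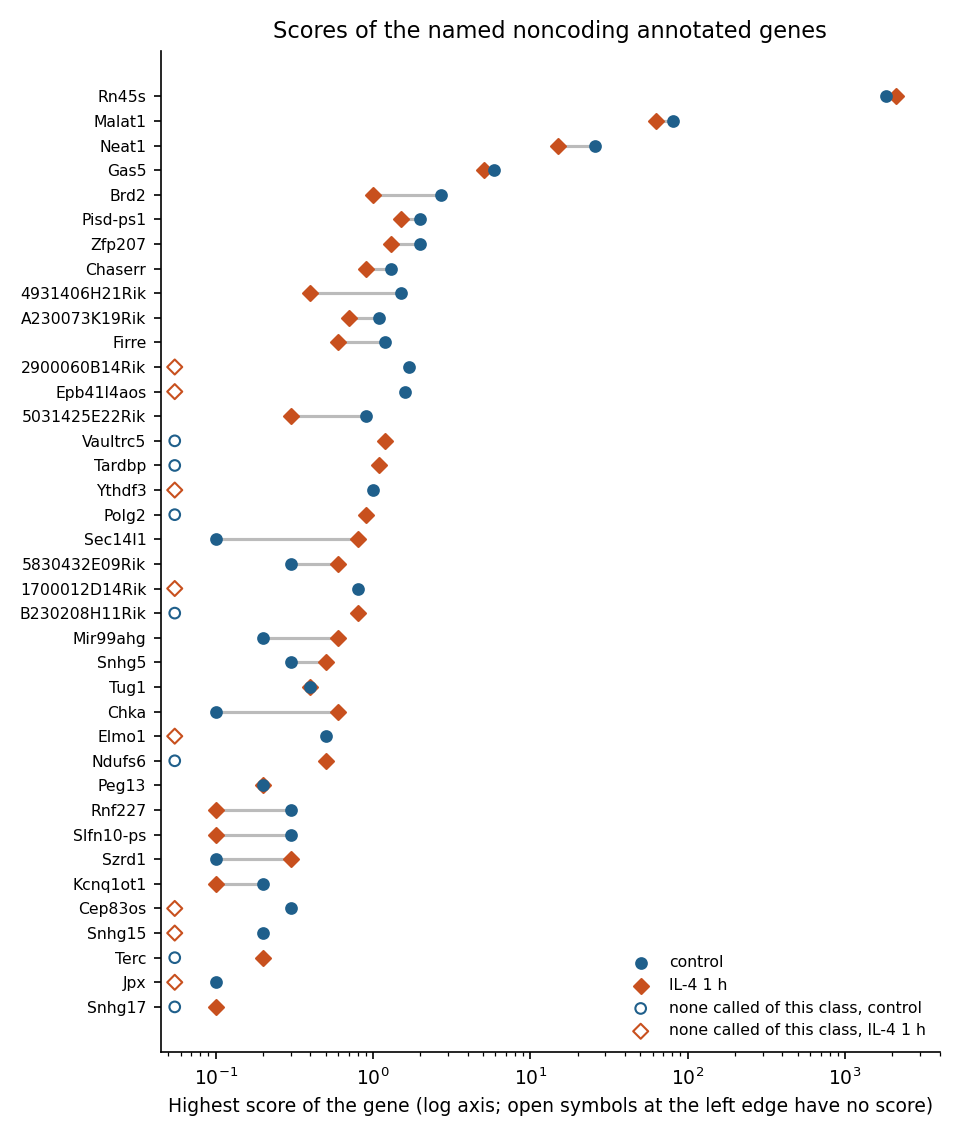
Highest score of each named gene in control (circles) and after IL-4 (diamonds) on a log axis; open symbols at the left edge mark a library with no transcript of the class. Rn45s, Malat1 and Neat1 lie above 10, and most other genes lie below 2.

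Over the 112 genes with a score in both libraries, 13 (11.6%) were at least 2-fold higher after IL-4 and 5 (4.46%) at least 2-fold lower on the centred scale. The background over all 11354 pairs of a gene and a class was 9.75% higher and 9.73% lower. Without centring, 11 genes (9.82%) were higher and 21 (18.8%) lower, against 7.95% and 26.7% of all pairs. On either scale the lower genes made up a smaller share of the class than of all pairs. The median of the 112 was 0.34, the value of equal printed scores, with an SD over genes of 0.79, and the exon class had a median of 0.02 over 1523 genes, with 183 higher and 159 lower. Rounding alone allowed 57 of the 112 genes to have no difference. With the whole rounding range past 2-fold, 4 genes were higher and 1 was lower, against a background of 3.93% and 4.3%. Those higher were Sec14l1, Chka, Mir99ahg and Szrd1, and the gene that was lower was 4931406H21Rik. Among 58 lncRNA genes 5 were higher and 3 lower, and among 45 coding genes 7 were higher and 1 was lower.

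The place of the call mattered to these counts. The highest transcripts overlapped between the libraries in 89 of the 112 genes and lay apart in 23. The SD of the centred log2 ratio was 0.67 in the former and 1.13 in the latter, which held 6 of the 18 genes past 2-fold. When the highest score of any class over the gene body was taken, 11 of the 13 higher genes had a value. Ratios of this body measure were centred as well, with a centre of -0.35. Of these genes, 5 were at least 2-fold higher after centring: Mir99ahg (1.9 in control and 6.7 after IL-4), Csf3r (3.9 and 9.4), 9330151L19Rik (0.4 and 0.7), Snhg5 (0.3 and 0.5) and Chpt1 (0.1 and 0.2). The printed scores of 9330151L19Rik and Snhg5 were less than 2-fold apart, and their centred log2 ratios were 1.16 and 1.09. Of the 5 lower genes 4 had a value, and Rnf227 and Slfn10-ps were at least 2-fold lower. This measure takes in the transcripts of the class. For Snhg5, 9330151L19Rik, Chpt1 and Rnf227 the body and class values were the same, so for these genes it is not a separate check. Csf3r, 9330151L19Rik and Chpt1 were named after their values were seen.

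By symbol, 64 genes were Rik clones, of which 27 had a score in both libraries, with 2 higher and 2 lower, beside the background of 9.75% and 9.73%. Of 19 Gm models 11 were in both libraries with 1 higher and 0 lower. Of 10 genes named as opposite-strand transcripts (os) 3 were in both, with 1 higher and 0 lower. Of 8 genes named as pseudogenes (ps) 4 were in both, with 0 higher and 1 lower. These counts are too small to be read against that background.

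Matched by overlap with any class in the other library, 210 pairs held a noncoding transcript. Of these 20 (9.52%) were at least 2-fold higher after IL-4 and 11 (5.24%) lower, against 10.9% and 11.6% of all 27406 matched pairs. Without centring 17 pairs (8.10%) were higher and 41 (19.5%) lower, against 9.1% and 27.7% of all pairs. The IL-4 transcript was the longer one in 152 of the 210 pairs (72.4%, against 71.5% of all pairs), with a median length ratio of 1.39 (1.32 over all pairs).

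Fewer transcripts of the class lacked a partner than in the lists as a whole. In control 45 of 210 (21.4%) overlapped no transcript of the other library on the same strand, against a background of 37.4% of all called transcripts and 32.6% of those in coding exons. After IL-4 it was 107 of 285 (37.5%), against 48.1% and 46.2%. An overlap of 1 bp counted, and the class was longer at the median than all called transcripts. These medians were 271.5 and 227 bp in control and 343 and 312 bp after IL-4. The part of length was not tested. With an overlap of at least 50%, the shares were 25.7% against 42.8% of all in control and 52.6% against 64.2% after IL-4. The class also had the lower share within ranges of score. In control 37.1% of noncoding transcripts with a score of 0.1 or 0.2 lacked a partner against 55.3% of all, 12.1% against 29.0% at 0.3 to 0.5, and 2.13% against 10.2% at 0.6 or more. After IL-4 the shares were 55.1% against 64.1%, 17.3% against 25%, and 4.65% against 7.03%. The exact 95% binomial intervals of the class and of all transcripts overlapped at 0.6 or more in control and at both upper ranges after IL-4. Of the genes called in 1 library alone, 21 of 47 in control and 23 of 76 after IL-4 had an overlapping transcript of some class in the other library.

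**Figure D4:**
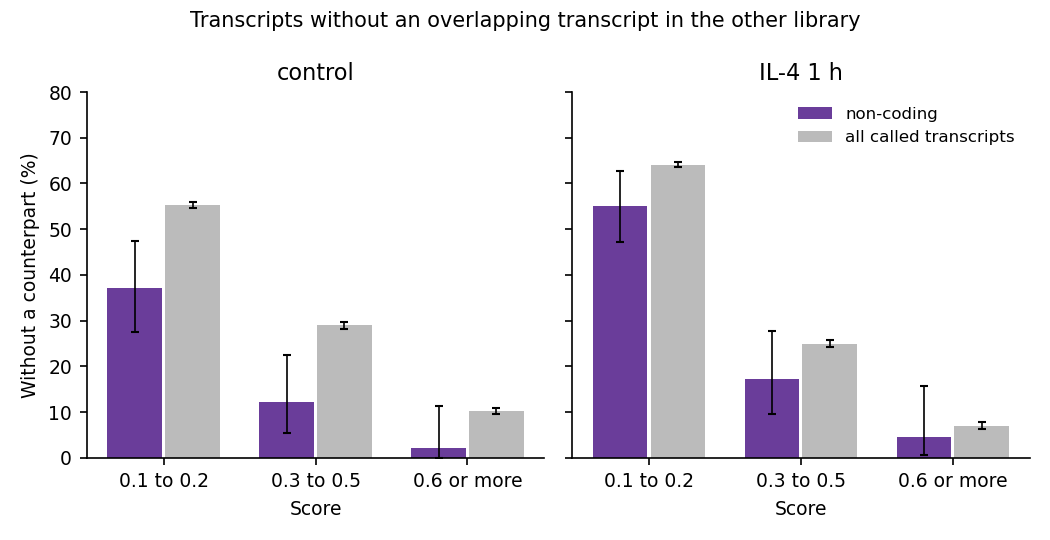
Share of transcripts without an overlapping same-strand transcript in the other library (%), by score, for the noncoding class and for all called transcripts; bars are shares and whiskers exact 95% binomial intervals, which cover counting error only. The noncoding share is below the overall share in each bin of both libraries.

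Score times length over the class, which covered 69163 bp in control against 118830 bp after IL-4, was 0.890 times as high after IL-4 as in control. This sum followed Rn45s. Without Rn45s, Malat1 and Neat1 it was 1.38 times as high, with 1.87 times the covered length and 0.736 times the mean score per base.

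Not every short transcript of the class lay on a T-rich stretch such as those printed above. The strand's own sequence could be read for transcripts that lay whole within 1 GENCODE exon, 117 of 210 in control and 136 of 285 after IL-4. Those of at most 150 bp had a median T share of 47.8% in control (18 transcripts) and 53.5% after IL-4 (8 transcripts), with a median longest run of 6 T in each. Longer ones had a median of 23.8% T in both libraries (99 and 128). Coding-exon transcripts of at most 150 bp had 17.5% (311) and 17.9% (96). The short noncoding transcripts were not rich in A, with medians of 16.1% and 15.2%. A T share of at least 40% was found in 10 of 18 and 6 of 8 short noncoding transcripts, and in 1 of 311 and 0 of 96 short exon transcripts. The length limit was set after the values were seen, coding exons differ in base composition from noncoding ones, and the part of base composition in these scores was not tested. Of the transcripts printed above, A230073K19Rik scored 1.1 and 0.6 over nearly the same bases in the libraries (93 and 91 bp), and F630111L10Rik 0.4 and 0.3.

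**Figure D5:**
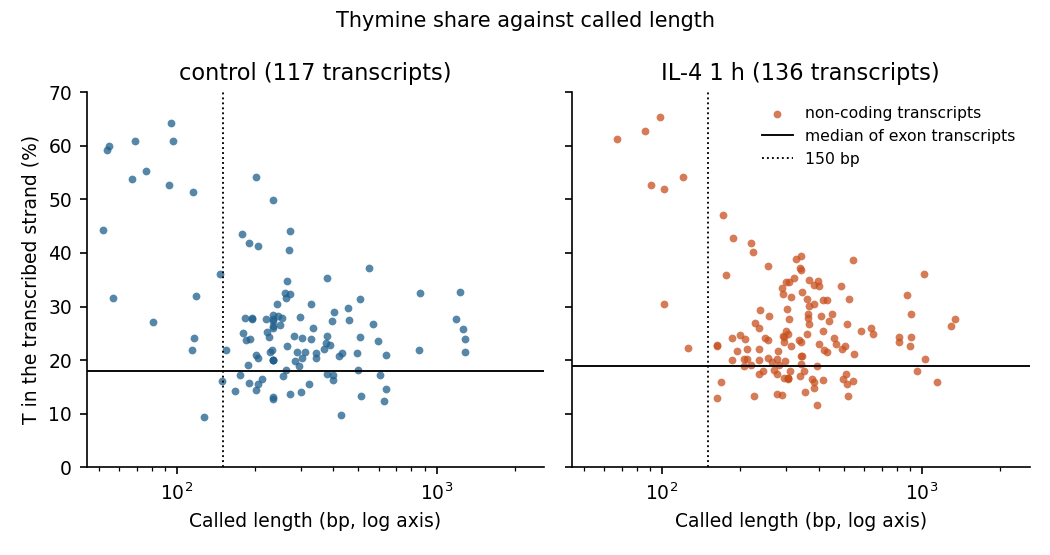
Share of T on the transcribed strand (%) against called length (bp, log axis) for the noncoding transcripts that lie within 1 exon, 117 in control and 136 after IL-4; the solid line is the median of exon transcripts and the dotted line 150 bp. Points above 45% T lie mostly left of the dotted line.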

How the data were processed

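Nascent RNA was measured by GRO-seq in 1 library of control BMDMs and 1 of BMDMs given IL-4; run-on reactions were made in duplicate and pooled, so a library is not a replicated measurement. Per the labels and the study's methods, the authors aligned reads to mm10 (the GRCm38 assembly) with BWA 0.7.10, used SAMtools 0.1.19, called transcripts per library in the groseq style of HOMER 4.2, left out blacklisted regions and annotated each transcript by its nearest feature. The deposited value is HOMER's peak score per transcript, rounded to 0.1; its scaling to library size is not given in the sources used here, and depth is unknown.

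Genes were named by the accession in the annotation and not by the nearest promoter, through RefSeq (213 genes), GENCODE (11) or the file's own pairs (10); 2 accessions matched no gene. A gene's value was its highest score in the class. Log2 ratios were centred on the median of all gene and class pairs, with a rounding range of 0.05 on either side of each score; called means at least 2-fold. Counterparts overlapped by at least 1 bp on the same strand. Named genes were the 10 highest means, the 5 largest increases and decreases with a value of at least 0.3, the 5 highest in each library alone, and listed genes with a member. Scripts (Python 3.11.15, pandas 2.3.3, SciPy 1.17.1) were tested on simulated data. Members and lists were chosen with earlier results of these data known; body counts, base composition and promoter motifs were added after the values were seen.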

Additional observations from a re-analysis of the deposited data

How the results depend on the processing

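With 1 library per condition no value has a replicate check, scores at or near 0.1 rest on rounding, and no paired analysis was possible because each condition has 1 library. Gene counts depended on the gene value. The 13 higher genes became 20 with summed scores, 32 with score times length and 4 over the whole rounding range. The 5 lower genes became 13 with score times length, 9 with any class over the gene body, 21 without centring or centred on noncoding genes, and 1 over the whole rounding range. For summed scores, score times length and the gene body, no share over all genes is given. These counts therefore cannot be read against a background. The 11 lower matched pairs became 41 without centring. Brd2 reversed to 0.12 and Sec14l1 to -0.11 with any class over the body, and 5031425E22Rik to 0.012 with score times length. Of 132 alternative values of 23 named genes, 14 in 10 genes had another sign than the reported value, these 3 among them. The others belonged to genes within 2-fold, such as Rn45s (-0.28 with score times length), Pisd-ps1 (0.28 with summed scores) and Kcnq1ot1 (0.35 with any class over the body).

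On the gene's own strand alone the shares were 0.362% in control and 0.411% after IL-4. With scores of at least 0.3 the IL-4 share was 0.637%, and among equal numbers of the highest-scoring transcripts 0.631%. Scores of at least 0.3 gave medians of 0.5 and 0.4, lengths of 300 and 384.5 bp, and 7.96% and 12.7% without a counterpart. Matched IL-4 transcripts had medians of 0.3 and 383 bp. With an overlap of 50%, 52.6% lacked a counterpart after IL-4. Without Rn45s, score times length was 0.792 times control. The cause was not tested.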
